A study of Mus musculus with 6 samples.

Results

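Receptor tyrosine kinases are membrane proteins that bind a growth factor or matrix ligand outside the cell, pair up, phosphorylate each other inside it and recruit adaptors that start RAS-ERK and PI3K signaling. In the mammary gland they carry signals between epithelium and stroma. KIT marks luminal progenitor cells and is also the stem cell factor receptor of mast cells and melanocytes, MET receives hepatocyte growth factor from stromal cells, and AXL is often high in tumor cells with mesenchymal features.

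The mRNA of 10 receptors was examined (Kit, Met, Mst1r, Pdgfra, Fgfr1, Fgfr2, Fgfr3, Axl, Ddr1 and Epha2), 10 of the 58 receptor tyrosine kinases looked up among the 37755 entries of the expression table. A member was read from the entry that carries its symbol, the one with the highest mean where several do. 3 cultures of primary mammary epithelial cells (MEC) were set beside 3 breast tumor cell lines (MEKO, lines 199, 233 and 336), 1 RNA-seq library each, to ask how receptor mRNA differs in tumor cells that lack JNK1 and JNK2. The MEC cultures had the genotype WAPCre+, came from 3 to 5 virgin C57/Bl6J females of 10 to 12 weeks each, and grew on collagen I with serum, EGF and insulin. The tumor lines had the genotype Mapk8KO Mapk9KO Cre+ on the same strain, so both groups carried the Cre transgene. Each line was grown from a dispersed tumor, kept for 2 passages on collagen I and then moved to standard dishes, in a medium for which the study lists serum and neither EGF nor insulin. MEKO tumors examined in the study included adenocarcinoma, adenosquamous carcinoma and a type with traits of both. The tumor type of each line was not used here. Wap-Cre is expressed in luminal cells of the pregnant and lactating gland, the tumors arose in older parous females, and a line was 1 library. Genotype, tumor origin, parity, age, culture and medium changed together between the groups and cannot be told apart.

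The targeted genes were low in every tumor line. Mapk8, which encodes JNK1, was at 23.1, 25.1 and 19.2 FPKM in MEC and at 5.93, 3.12 and 1.37 FPKM in lines 199, 233 and 336. Mapk9, which encodes JNK2, was at 24.4, 21.5 and 22.1 FPKM and at 7.62, 3.16 and 3.07 FPKM. FPKM is the number of fragments scaled by transcript length and by library size. Over 12461 tested entries, 9.9% were called (adjusted p under 0.05 by limma and a log2 fold change beyond 0.75), 2.64% higher in MEKO and 7.26% lower, and in 37.2% the libraries of the groups did not overlap. Summed luminal keratin and adhesion markers were at 5969 to 9676 FPKM in MEC and 1117 to 2309 FPKM in MEKO. Luminal markers were thus present in all libraries but lower in MEKO, and 4 of the 6 were called lower. Krt19 was at 356 to 1057 FPKM in MEC and 7.93 to 26.8 FPKM in MEKO. Basal markers summed to 1558 to 2855 FPKM in MEC, 2276 FPKM in line 199, and 10.6 and 58.7 FPKM in lines 233 and 336. Fibroblast markers summed to 119 to 211 FPKM in MEC, 1118 FPKM in line 199, 1.81 FPKM in line 233 and under 5 FPKM in line 336. The sum in line 199 was mostly Col1a1 and Col1a2 (600 and 408 FPKM). In line 199, 5 of the 9 fibroblast markers lay above all MEC libraries and 3 (Dcn, Lum and Thy1) below, and of 8 basal markers 3 lay above and 4 below. In lines 233 and 336, 8 of 9 and 8 of 8 lay below.

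Between MEC and MEKO, Kit was at or near 0 in every tumor line while Axl, already the most abundant of the 9 members with an entry of their own, more than doubled. Fgfr1 and the weakly expressed Fgfr3 were lower in each line than in each MEC library, Met differed between lines with no common direction, and Ddr1 and Epha2 overlapped between the groups. Of the 10 members, 7 reached the mean of 1 FPKM needed for a test. Kit was called lower and Axl higher, beside 7.26% and 2.64% of all tested entries called in those directions. Kit, with nearly no signal in MEKO, passed that filter through its MEC level and had to differ once it passed, so the share of tested members called is not a measure of the family. By the exact permutation test (two-sided), p was 0.1 for Kit, Fgfr1, Fgfr3 and Axl, the smallest that 3 against 3 libraries allow, and 0.3 or more for the other members.

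**Figure D1:**
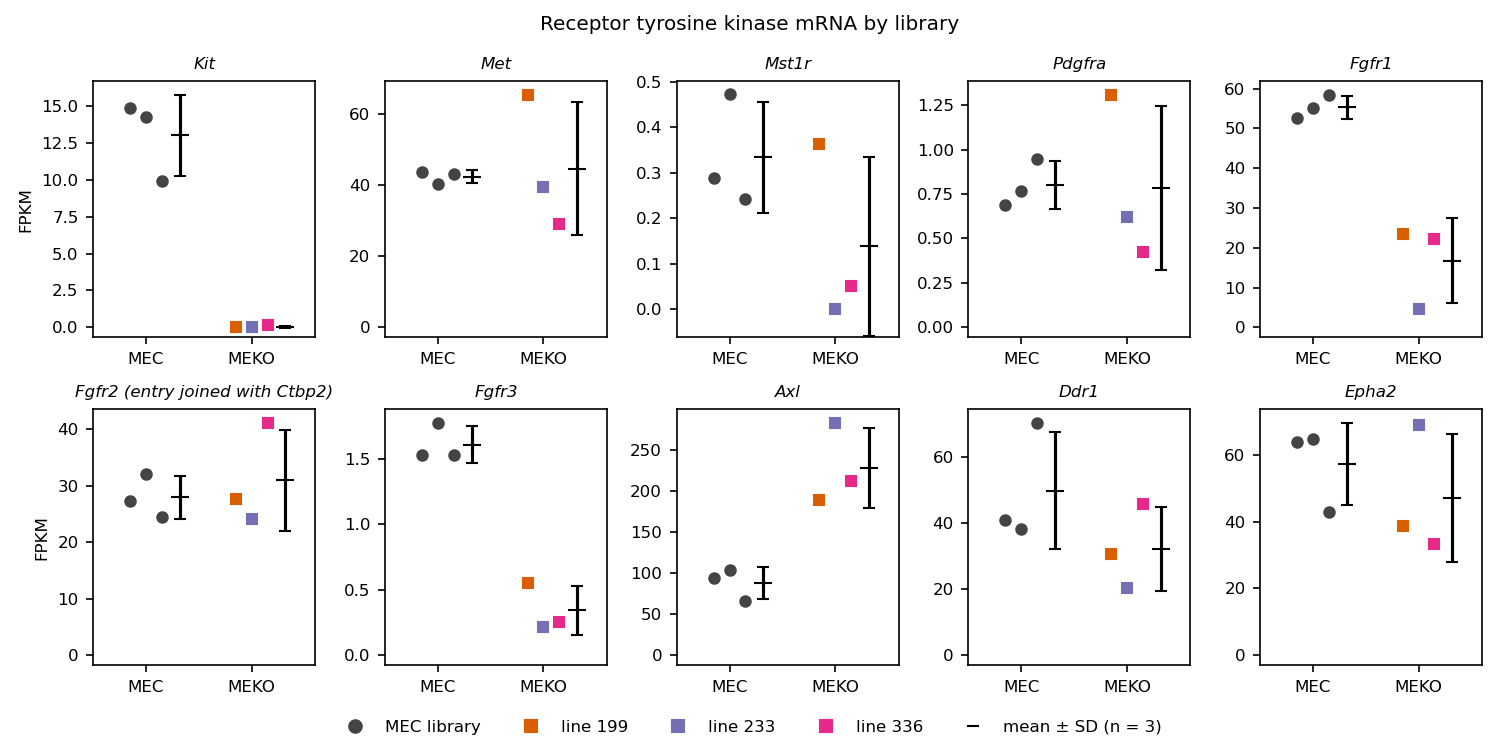
FPKM of the 10 receptors in each MEC library (circles) and each MEKO line (colored squares), with the mean ± SD of each group (n = 3) as bars and a separate linear axis for each gene. Kit lies at 9.90 to 14.9 FPKM in MEC and at most 0.129 FPKM in MEKO, and Axl at 65.5 to 104 FPKM in MEC and 188 to 282 FPKM in MEKO.

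The promoters of Kit and Axl, the members called in opposite directions, and of Met, whose lines lay on both sides of MEC, are shown because JNK phosphorylates JUN, a subunit of the AP1 factor. Each is the RefSeq window (GRCm38.p6) from 250 bases before to 50 bases after a gene start, 5′ to 3′ on the strand of the gene. Capitals mark AP1 motifs (TGANTCA) and GC boxes (GGGCGG or its reverse complement), searched on both strands. The windows are chr5:75574737-75575036 on the plus strand for Kit, chr7:25788684-25788983 on the minus strand for Axl and chr6:17463707-17464006 on the plus strand for Met.
Kit: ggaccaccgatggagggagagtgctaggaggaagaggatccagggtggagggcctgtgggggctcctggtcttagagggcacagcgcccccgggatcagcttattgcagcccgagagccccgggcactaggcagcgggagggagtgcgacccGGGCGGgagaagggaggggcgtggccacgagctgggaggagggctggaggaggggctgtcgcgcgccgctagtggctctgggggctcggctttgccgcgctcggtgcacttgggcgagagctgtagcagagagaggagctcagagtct
Axl: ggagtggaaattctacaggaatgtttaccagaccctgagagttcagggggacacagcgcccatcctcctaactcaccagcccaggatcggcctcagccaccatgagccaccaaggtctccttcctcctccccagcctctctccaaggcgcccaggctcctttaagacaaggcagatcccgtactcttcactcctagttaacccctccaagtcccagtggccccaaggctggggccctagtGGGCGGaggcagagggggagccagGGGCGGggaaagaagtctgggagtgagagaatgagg
Met: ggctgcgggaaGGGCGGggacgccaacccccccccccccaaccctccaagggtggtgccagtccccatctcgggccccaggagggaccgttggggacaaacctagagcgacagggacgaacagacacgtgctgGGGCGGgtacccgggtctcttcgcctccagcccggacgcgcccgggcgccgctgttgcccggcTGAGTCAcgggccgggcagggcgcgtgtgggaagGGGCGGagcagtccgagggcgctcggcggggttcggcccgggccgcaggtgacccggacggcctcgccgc

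The Kit window held 1 GC box, which began 98 bases before the start, and no AP1 motif. The Axl window held 2 GC boxes, the second of them past the start, and no AP1 motif. The Met window held 3 GC boxes and 1 AP1 motif, TGAGTCA, which began 54 bases before the start. Of 32851 windows of this length, 7.81% held the AP1 motif and 35.7% a GC box. The 9 members with an entry in the promoter table had 15 windows. Of these members, 2 (Met and Ddr1) had an AP1 motif in any window and 7 had a GC box. Some members had several windows, so these counts per member cannot be set against the shares per window. A match of letters is a description of the sequence and not a measured site.

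Kit encodes the receptor of stem cell factor and is annotated on GRCm38 at chr5:75574916-75656722, plus strand. Its FPKM was 14.9, 14.2 and 9.90 in MEC 1, 2 and 3. It was listed at 0 in lines 199 and 233 and at 0.129 FPKM in line 336, which is 0.995% of the MEC mean of 13.0 ± 2.72 FPKM (SD, n = 3). Every tumor line lay far below every MEC library. The log2 fold change on the log2(FPKM + 1) scale was -3.73 (SE 0.22, 95% interval -4.27 to -3.19, adjusted p = 0.000927 by limma), and the added 1 makes this an understatement of the change. None of 15 housekeeping genes was at 0 in any library, which does not measure how well a gene at the level of Kit is detected. Kit stood at the 60.3 to 71.7 percentile of expressed entries in MEC and at the 18.6 percentile in line 336.

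Markers of luminal progenitors were also lower in MEKO. The 6 markers (Elf5, Aldh1a3, Cd14, Ltf, Csn3 and Lalba) summed to 1593 to 2160 FPKM in MEC and 15.6 to 58.9 FPKM in MEKO. Most of the MEC sum was Csn3, at 1068, 1184 and 1871 FPKM. Of the 6 markers 5 were called lower, beside 7.26% of all tested entries. The drop was not particular to this list. Of 6 general luminal markers 4 were called lower, and of 4 tested hormone sensing markers 2 (Pgr and Foxa1). Esr1 and Areg, also tested as hormone sensing markers, were not called, with log2 fold changes of -0.02 and 1.21. The 5 hormone sensing markers summed to 38.4 to 81.5 FPKM in MEC and 25.1 to 177 FPKM in MEKO. Elf5, a transcription factor of the alveolar luminal lineage, fell by 5.01 on the log2 scale. Like Kit, the genes Elf5, Csn3 and Pgr passed the filter through their MEC level, so their calls were close to fixed by that filter. The part of luminal progenitor content in the Kit difference was not tested, and in bulk libraries fewer cells of a type and less RNA per cell cannot be told apart. Of 7 mast cell markers, 6 were listed at 0 in all MEC libraries, and the 7 summed to 0.0585 to 0.444 FPKM in MEC. The part of mast cells in the Kit level was not tested, and markers of melanocytes were not looked up. The genes nearest to Kit in pattern over the 6 libraries were Ffar4, Fcgbp and Apoe, with root mean square differences of centred log2(FPKM + 1) of 0.190, 0.199 and 0.209. Ffar4, a free fatty acid receptor, was at 8.93 to 17.4 FPKM in MEC and 0.0379 to 0.122 FPKM in MEKO. Fcgbp encodes a mucin-like secreted protein. Apoe, a lipid carrier, was at 35.4 to 45.4 FPKM in MEC and, unlike Kit, still at 1.19 to 2.42 FPKM in MEKO.

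Kitl, which encodes stem cell factor, the ligand of KIT, was not called. It was at 8.62, 7.01 and 11.6 FPKM in MEC and at 7.64, 1.05 and 7.44 FPKM in lines 199, 233 and 336. Lines 199 and 336 lay inside the MEC range and line 233 below it. This gave a log2 fold change of -0.90 (95% interval -2.30 to 0.50, adjusted p = 0.354 by limma).

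Pdgfra, the receptor of PDGF-AA and a fibroblast marker, lies on the same chromosome as Kit at chr5:75152292-75198215. It was at 0.686, 0.769 and 0.949 FPKM in MEC and at 1.31, 0.622 and 0.423 FPKM in lines 199, 233 and 336. Line 199 was the highest of the 6 libraries and the other lines were below all MEC libraries. With a mean under 1 FPKM it was not tested. Without the filter its log2 fold change was -0.04 (95% interval -0.55 to 0.47, adjusted p = 0.918 by limma over 21813 entries). The 6 tested protein-coding genes whose start lay within 1 Mb of that of Kit had median log2 differences from MEC of -0.01, 0.42 and 0.24 in lines 199, 233 and 336.

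Axl, a receptor of the TAM family that binds GAS6, is annotated at chr7:25757273-25788705, minus strand. Its FPKM was 93.7, 104 and 65.5 in MEC and 188, 282 and 212 in lines 199, 233 and 336. The lowest tumor line lay above the highest MEC library. The means were 87.7 ± 19.9 and 227 ± 48.8 FPKM (SD, n = 3), a ratio of 2.59. The log2 fold change was 1.37 (SE 0.24, 95% interval 0.80 to 1.94, adjusted p = 0.0197 by limma). The call was lost when MEC 1, MEC 2 or MEC 3 was left out (adjusted p by limma 0.0792, 0.0601 and 0.0580), with log2 fold changes that stayed beyond 0.75 in those fits. It was present when any tumor line was left out. Axl moved from the 92.7 to 95.6 percentile of expressed entries in MEC to the 97.8 to 98.7 percentile in MEKO.

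Line 199, in which the collagen markers of fibroblasts were high, had the lowest Axl of the 3 lines, and line 233 the highest. The part of stromal or basal cell content in the Axl difference was not tested. The other TAM receptors were not called. Tyro3 was at 7.38, 7.14 and 11.3 FPKM in MEC and 8.83, 4.40 and 3.76 FPKM in MEKO (adjusted p = 0.300 by limma), and Mertk was at 0.529 FPKM or less in each library and was not tested. Gas6 mRNA varied within both groups. It was at 22.4, 21.3 and 83.0 FPKM in MEC and at 12.5, 2.65 and 48.0 FPKM in lines 199, 233 and 336, with a log2 fold change of -1.40 (95% interval -3.79 to 1.00, adjusted p = 0.399 by limma). Among lines, 233 had the most Axl and the least Gas6, but 199, with the least Axl, did not have the most Gas6. The 23 tested neighbours of Axl had median log2 differences of -0.19, -0.37 and -0.07 in the 3 lines.

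Met encodes the receptor of hepatocyte growth factor and is annotated at chr6:17463800-17573980, plus strand. Its FPKM was 43.7, 40.3 and 43.3 in MEC, a spread of 1.87 FPKM (SD, n = 3). It was 65.3, 39.6 and 29.0 in lines 199, 233 and 336, which are 154%, 93.5% and 68.4% of the MEC mean. Line 199 lay above, and lines 233 and 336 below, all MEC libraries, so no direction was shared. The log2 fold change was near 0, with a 95% interval of -0.70 to 0.69 (adjusted p = 0.993 by limma), which leaves room for a difference of up to that size. The genes nearest to Met in pattern were Mrps5, Rapgef2 and Arntl, with root mean square differences of 0.0827, 0.0855 and 0.0913. Mrps5 encodes a mitochondrial ribosomal protein, Rapgef2 an exchange factor for RAP GTPases and Arntl the circadian factor BMAL1.

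The related receptor Mst1r (RON), which binds macrophage stimulating protein, was near the bottom of the range. It was at 0.288, 0.472 and 0.242 FPKM in MEC and at 0.362, 0 and 0.0519 FPKM in lines 199, 233 and 336. The groups overlapped, since line 199 lay within the MEC range. It was not tested, and without the filter its log2 fold change was -0.24 (adjusted p = 0.371 by limma). The ligands of both receptors were also low. Hgf was at 1.16, 0.832 and 1.25 FPKM in MEC, at 0.312 FPKM in line 199 and listed at 0 in lines 233 and 336. Mst1, the ligand of RON, was at 0.386 to 0.516 FPKM in MEC and at 1.47, 0.161 and 0.202 FPKM in the lines. Neither ligand reached the mean needed for a test.

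FGF receptors bind fibroblast growth factors together with heparan sulfate. Fgfr1 (chr8:25513654-25575718, plus strand) was at 52.6, 55.1 and 58.3 FPKM in MEC and at 23.6, 4.50 and 22.3 FPKM in lines 199, 233 and 336. Every line lay below every MEC library, and line 233 was the lowest at 8.13% of the MEC mean. The log2 fold change was -1.94 (SE 0.57, 95% interval -3.32 to -0.56), and the adjusted p of 0.0857 by limma missed the threshold. Without line 233 the same receptor was called, with a smaller log2 fold change of -1.24 and an adjusted p of 0.0124 by limma, and sample weights also gave a call (adjusted p = 0.0160 by limma). The 14 tested neighbours of Fgfr1 had median log2 differences of -0.06, 0.25 and 0.16 in the lines, beside -1.20, -3.36 and -1.28 for Fgfr1.

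Fgfr3 (chr5:33721674-33737068, plus strand) was at 1.53, 1.78 and 1.53 FPKM in MEC and at 0.555, 0.216 and 0.255 FPKM in the lines. The groups did not overlap, but the mean over 6 libraries was 0.976 FPKM and the entry was not tested. Without the filter the log2 fold change was -0.97 (SE 0.15, adjusted p = 0.0232 by limma over 21813 entries) and the entry was called. A transcript on the opposite strand, G630022F23Rik, covers 13.9% of the exon bases of Fgfr3, and the strand of the reads is not given in the sources used here. The coding sequences of Fgfr1 and Fgfr3 share the longest exact run among the 45 pairs of members, shown to give the scale on which reads of these paralogs could be confused.
Fgfr1 and Fgfr3: gagatggagatgatgaaaatgattgg

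That run spans 26 bases (1624 to 1649 of the Fgfr1 coding sequence), fewer than the shortest read the study kept after trimming, and Kit and Fgfr3 share at most 21 bases. A read that lies whole within these coding sequences, the longest annotated for each gene, would differ between members in at least 1 base.

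Fgfr2 had no entry of its own. Its symbol stood on an entry joined with Ctbp2, a transcriptional corepressor, and the FPKM of that entry cannot be divided between the genes. The annotated span of Fgfr2 (chr7:130162451-133123350, minus strand) shares 314 exon bases with Ctbp2 on the same strand. The joined entry was at 27.4, 32.1 and 24.5 FPKM in MEC and at 27.6, 24.2 and 41.1 FPKM in the lines. The groups overlapped (log2 fold change 0.12, 95% interval -0.44 to 0.67, adjusted p = 0.773 by limma).

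Among receptors for matrix and cell surface ligands, Ddr1, which binds collagen, was at 41.0, 38.3 and 70.4 FPKM in MEC and at 30.6, 20.5 and 45.7 FPKM in lines 199, 233 and 336. Lines 199 and 233 lay below all MEC libraries and line 336 within their range. The fitted log2 fold change was -0.63 (95% interval -1.49 to 0.22, adjusted p = 0.294 by limma). Its relative Ddr2 was at most 2.16 FPKM in MEC and at 24.2, 10.5 and 0.111 FPKM in the lines, with the third line opposite to the other two. It was not called (adjusted p = 0.435 by limma). Without line 336 it was called, beside Epha1 and in place of Styk1 and Igf1r.

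Epha2, an ephrin-A receptor of epithelial cells, was at 63.7, 64.8 and 43.0 FPKM in MEC and at 38.7, 68.9 and 33.3 FPKM in the lines. Line 233 was the highest of the 6 libraries and the other lines the lowest. Its log2 fold change was -0.33 (95% interval -1.08 to 0.43, adjusted p = 0.527 by limma). Epha2 was the member whose neighbours differed most. The 23 tested genes within 1 Mb on chromosome 4 had median log2 differences of -0.84, -1.11 and -0.65 in lines 199, 233 and 336, against at most 0.02 over all tested entries. Epha2 itself differed by -0.53, 0.29 and -0.74, so in line 233 it lay above the MEC mean while the median of its neighbours was lower.

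**Figure D2:**
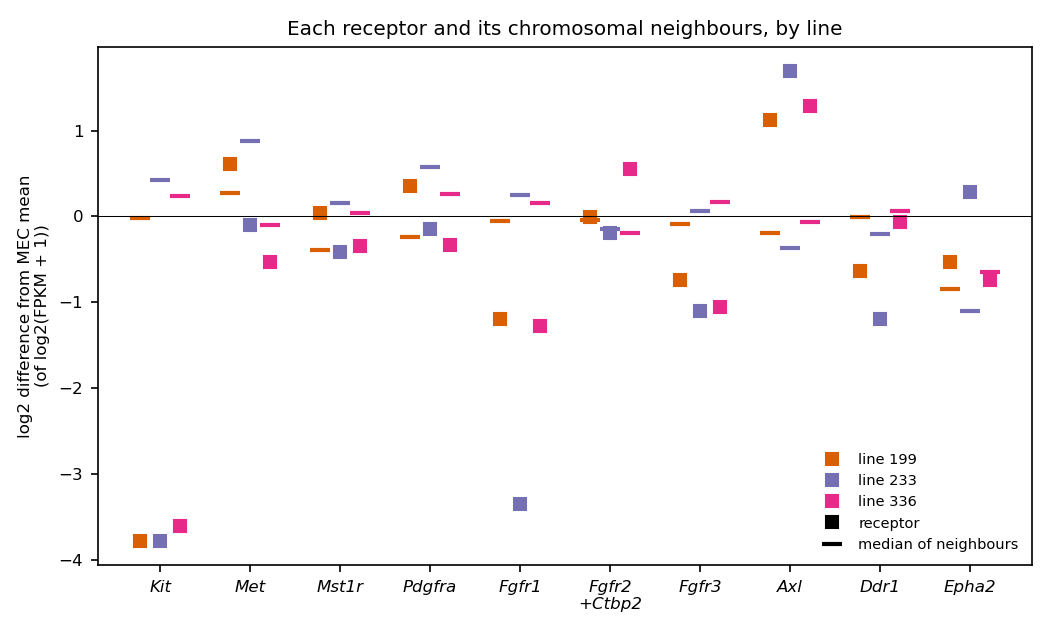
Log2 difference of each MEKO line from the MEC mean, on the log2(FPKM + 1) scale, for each receptor (squares) and the median of its tested protein-coding neighbours within 1 Mb (dashes). Kit, Fgfr1 and Axl lie well away from their neighbours in all 3 lines, and the neighbours of Epha2 are lower in all 3.

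The order of the members by FPKM, a length-corrected level, changed between the groups. In MEC Axl was highest, with no overlap with the next. Epha2, Fgfr1, Ddr1 and Met followed at means of 57.2, 55.3, 49.9 and 42.4 FPKM, and each neighbour in this order overlapped with the next. Kit (13.0 FPKM), Fgfr3 (1.61), Pdgfra (0.801) and Mst1r (0.334) came below, each separated from the next. In MEKO Axl was again highest, at 227 FPKM, and Epha2, Met (mean 44.6), Ddr1 (32.3) and Fgfr1 (16.8) followed with overlapping neighbours. Pdgfra, Fgfr3, Mst1r and Kit were at 1.31 FPKM or less in each line, and neighbours in that order overlapped.

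The summed FPKM of 57 receptor tyrosine kinases, with the joined Fgfr2 entry left out, was 616 to 681 in every library and did not separate the groups. Its makeup differed. Axl took 15.2%, 16.7% and 10.1% of the sum in MEC and 29.1%, 41.4% and 34.4% in lines 199, 233 and 336. Fgfr1 took 8.80% ± 0.23 in MEC and 2.64% ± 1.71 in MEKO (SD, n = 3). Kit took 1.53% to 2.42% in MEC and at most 0.0210% in MEKO. Met took 6.75% ± 0.311 in MEC and 6.88% ± 2.85 in MEKO. Fewer receptors reached 1 FPKM in the lines, with 35, 36 and 31 of the 57 at 1 FPKM or more in MEC and 28, 23 and 25 in MEKO. Some of the 57 are receptors of other cell types. Kdr, an endothelial marker, was at 1.23, 1.59 and 0.0979 FPKM in MEC and at most 0.0773 FPKM in MEKO. Endothelial markers summed to 14.1, 16.7 and 1.99 FPKM in MEC and at most 0.484 FPKM in MEKO. The part of endothelial content in the count of receptors was not tested. The shares and counts rest on the same FPKM values and are a description with no test.

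**Figure D3:**
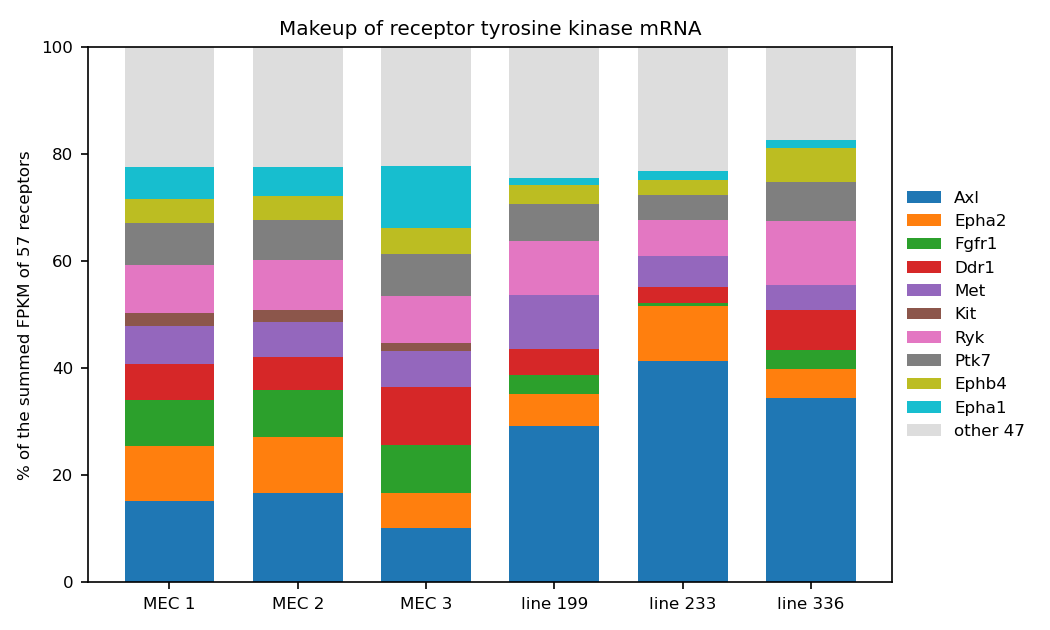
Share of the summed FPKM of 57 receptor tyrosine kinases taken by 6 members and by Ryk, Ptk7, Ephb4 and Epha1 in each library, in percent, with the other 47 in grey. The Axl segment is 10.1% to 16.7% in MEC and 29.1% to 41.4% in MEKO, and the Kit segment is visible in MEC alone.

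Among the other 48 receptors, 26 were tested and 3 were called, 2 higher and 1 lower, a share near the 9.9% called over all tested entries. Styk1, a kinase-like membrane protein, was at 0.867, 0.285 and 1.28 FPKM in MEC. It was at 5.89, 25.0 and 8.75 FPKM in lines 199, 233 and 336 (log2 fold change 2.77, SE 0.52, adjusted p = 0.0245 by limma). Styk1 passed the filter of 1 FPKM through its MEKO level, its MEC mean being 0.809 FPKM, so its call is not independent of that filter. Igf1r, the receptor of insulin-like growth factors, was at 5.50 to 6.59 FPKM in MEC and 10.8 to 14.3 FPKM in MEKO (log2 fold change 0.93, adjusted p = 0.0233 by limma). Epha1 was at 37.8, 33.4 and 74.4 FPKM in MEC and at 7.57, 11.9 and 9.20 FPKM in the lines (log2 fold change -2.16, SE 0.33, adjusted p = 0.0145 by limma). Of the 26 other receptors tested, the groups did not overlap in 10, these 3 among them, beside 37.2% of all tested entries. Without MEC 1 limma called 0 of the other receptors, and 5 of the tested ones had an unadjusted p under 0.05. Styk1 and Igf1r also lost their calls without MEC 2, without MEC 3 and without line 336, with adjusted p values by limma of 0.0516 to 0.103. Over these 26 receptors the median log2 fold change was -0.40, over the 7 tested members -0.33, and over all tested entries 0.01.

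**Figure D4:**
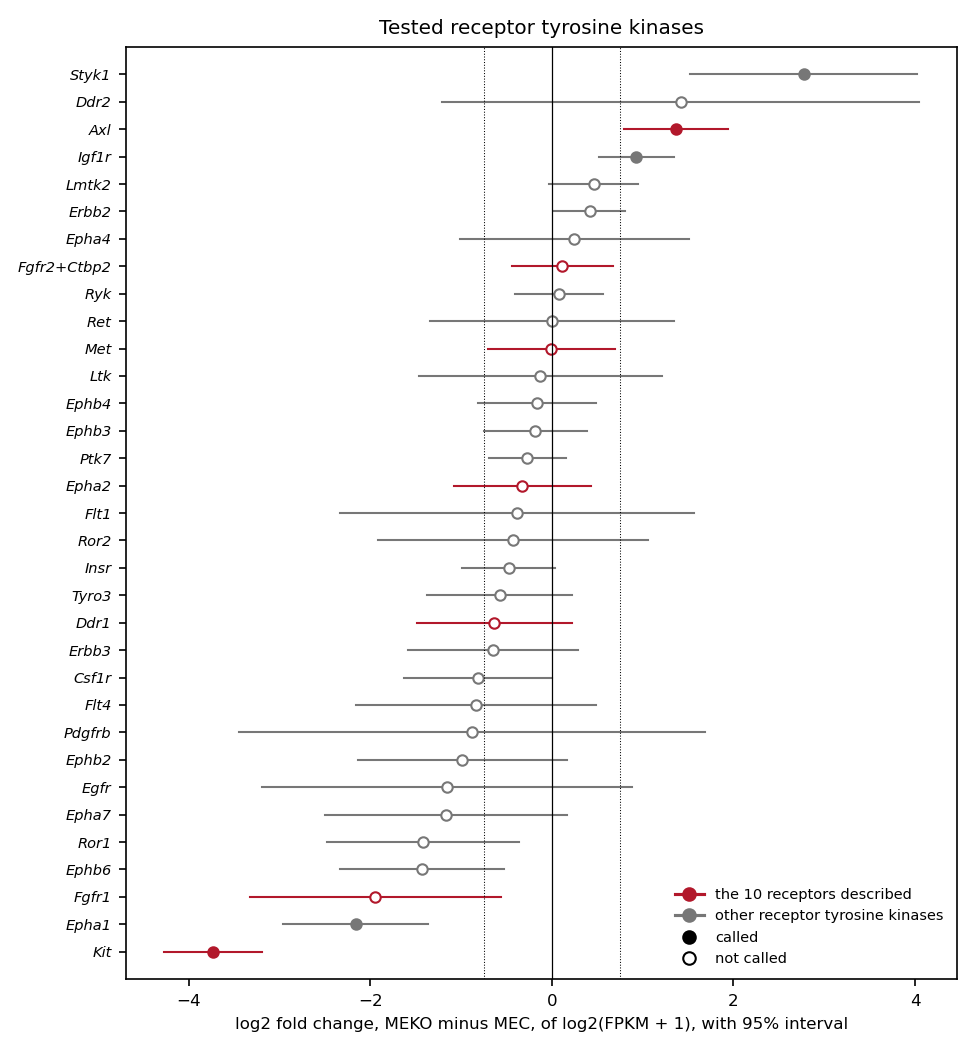
Log2 fold change (MEKO minus MEC, log2(FPKM + 1) scale) with its 95% interval for the 33 tested receptor tyrosine kinases, the described members in red, with filled points for calls and dotted lines at 0.75 in either direction. Kit and Epha1 are called lower, and Styk1, Axl and Igf1r higher.

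Of 34 ligands of the members 19 were tested. limma called 4 lower and 0 higher, beside 7.26% and 2.64% of all tested entries, and 0 higher had an unadjusted p under 0.05. Fgf1, a ligand of all FGF receptors, was at 5.03, 9.89 and 7.23 FPKM in MEC and 0.189, 0.266 and 0.359 FPKM in the lines. It passed the filter through its MEC level, so its call was close to fixed by that filter (log2 fold change -2.68). Pdgfb was at 63.9 to 106 FPKM in MEC and 14.7 to 25.5 FPKM in MEKO (log2 fold change -2.02, adjusted p = 0.00913 by limma). Pdgfc and Efna4, an ephrin that binds EPHA receptors, had log2 fold changes of -1.79 and -0.90. Of the 19 tested ligands, these 4 were the only ones without overlap between the groups, beside 37.2% of all tested entries. Col1a1, which encodes a collagen that binds DDR1, was at 44.2 to 74.7 FPKM in MEC, 600 FPKM in line 199, and 1.08 and 0.566 FPKM in lines 233 and 336. The median log2 fold change of the tested ligands was -0.90.

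Co-receptors hold ligands at the cell surface, and proteases activate or shed ligands and receptors. Of 22 co-receptors and processing genes 19 were tested, and 5 were called lower and 1 higher, beside 7.26% and 2.64% of all tested entries. Hpn, hepsin, a membrane protease that can activate HGF, was at 12.1, 15.6 and 18.1 FPKM in MEC and at 0, 0.752 and 2.33 FPKM in the lines (log2 fold change -3.16, adjusted p = 0.0109 by limma). Fgfrl1, an FGF receptor without a kinase domain, Sdc4, a heparan sulfate proteoglycan, Furin, a convertase that matures MET, and Adam10, a sheddase, had log2 fold changes of -1.48, -1.30, -1.24 and -0.89. Fgfbp1, which carries FGFs off the matrix, was at 79.2, 69.3 and 35.7 FPKM in MEC and 187, 244 and 154 FPKM in MEKO (log2 fold change 1.70, adjusted p = 0.0281 by limma). Plxnb2, a plexin that associates with MET, had an adjusted p of 0.0466 by limma, but its log2 fold change of 0.65 was under the threshold.

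Adaptors and attenuators act downstream of many of these receptors. All 22 were tested, and 2 were called, beside 9.9% of all tested entries, both lower and both phosphatases that act on receptors. Ptprj had a log2 fold change of -1.81 (adjusted p = 0.0138 by limma) and Ptpn1 of -0.93 (adjusted p = 0.0374 by limma). Of 16 genes that respond to receptor signaling 15 were tested and 2 were called lower, beside 7.26% of all tested entries. Spry4, a feedback inhibitor, was at 3.26, 4.23 and 2.09 FPKM in MEC and at most 0.141 FPKM in MEKO (log2 fold change -1.90). Like Kit, it passed the filter through its MEC level. Ier3, an immediate early gene, had a log2 fold change of -1.47 (adjusted p = 0.0237 by limma). Before adjustment, 5 of the tested response genes were lower and 2 (Fosl1 and Spred2) higher at p under 0.05 by limma. Fosl1 and Spred2 had log2 fold changes of 1.96 and 0.62 and were not called. The median log2 fold changes of these lists were -0.22 and -0.46.

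**Figure D5:**
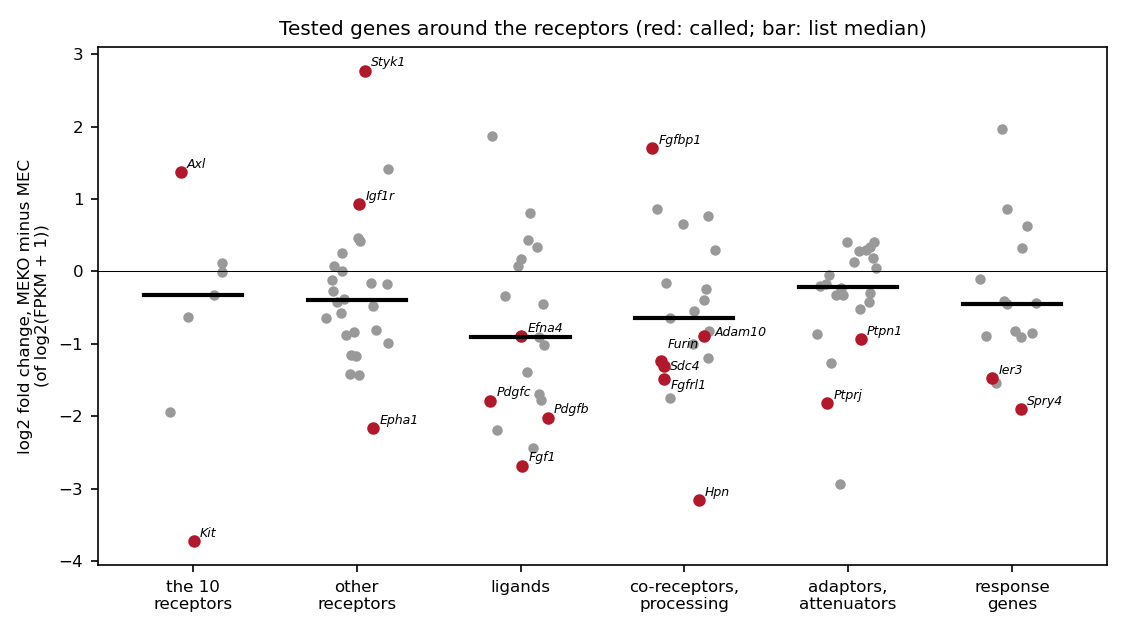
Log2 fold change (MEKO minus MEC, log2(FPKM + 1) scale) of the tested genes in 6 lists, with called genes in red and named and the list median as a bar. Called ligands, adaptors and response genes all lie below 0, and Axl, Styk1, Igf1r and Fgfbp1 are the called genes above it.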

How the data were processed

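RNA-seq libraries of 3 MEC preparations and 3 MEKO tumor lines were analysed. The authors trimmed paired-end reads, aligned them to GRCm38 with Bowtie2 and TopHat2 2.0.14, and quantified mRNA with Cufflinks 2.2.1. The deposited FPKM table holds 37755 entries. 2 entries carried no values and 466 joined several gene symbols. Sequencing depth cannot be read from FPKM and is unknown here, so counting intervals were not computed. A symbol was read from the entry that holds it, with the highest mean where there were several. limma 3.58.1 in R 4.3.3 was fitted to log2(FPKM + 1) with a mean-variance trend over the 12461 entries with a mean of at least 1 FPKM, and tested on simulated data. An entry was called at an adjusted p (Benjamini-Hochberg) under 0.05 and a log2 fold change beyond 0.75, the thresholds of the study. The members and gene lists were chosen with earlier results of these data known. Named outside the 10 receptors are Mapk8, Mapk9, 4 ligands, the other receptors called, up to 5 called genes in each direction per list, and the 3 genes nearest in pattern to Kit and to Met. Tyro3, Mertk, Col1a1, Col1a2, Dcn, Lum, Thy1, Ddr2, Plxnb2, Elf5, Esr1, Areg, Kdr, Fosl1 and Spred2 were added after their values were seen. Gene positions are from GENCODE M21 and promoters from RefSeq on GRCm38.p6. Alternatives were the pseudocount, filter, scaling, variance model, call threshold and each library left out.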

Additional observations from a re-analysis of the deposited data

How the results depend on the processing

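No paired analysis was possible because the groups share no replicate numbers. Kit and Axl were called of the 10 members. The count was 1 to 3 when single libraries were left out, Axl being lost without MEC 1, MEC 2 or MEC 3, Fgfr3 gained without line 199 and Fgfr1 without line 233. It was 3 with sample weights and 3 without a filter. Of the other receptors 3 were called, 5 with sample weights and 0 (without MEC 1) to 5 (without line 199) in the fits that leave out a library. Over all entries 1234 were called, 738 with a filter at 5 FPKM, 1978 with sample weights, and 259 (without MEC 1) to 1966 (without line 199) with a library left out. Quantile normalization gave 477 higher and 783 lower calls, against 329 and 905, and a median log2 fold change of 0.10 against 0.01, with Kit at -3.57 and Axl at 1.39. No member called reversed its direction. The planned use of an entry that carries a symbol alone gave no value for Fgfr2, which has only the joined entry. The causes were not tested. With 3 libraries a group and unknown depth, low members such as Mst1r and Pdgfra are the least certain.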
